A study of Mus musculus with 13 samples.

Results

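The chemokine and chemokine receptor genes were taken as every gene with a probe set of its own whose symbol begins with Ccl, Cxcl, Ccr, Cxcr, Ackr, Xcl or Xcr and a number, together with Cx3cl1 and Cx3cr1. This gave 56 genes of the 19937 measured. They were followed over 13 mouse Affymetrix arrays in 6 groups, each array being a biological replicate by its label. FACS-sorted melanocytes came from Cdkn2a/Braf mice at day 19, before growth arrest (2 arrays), from Cdkn2a/Braf mice at day 50, after it (2 arrays), and from Cdkn2a mice with wild-type Braf at day 19 (2 arrays). The other 7 arrays held tissue that had not been cultured: 3 of pooled melanocytic proliferations from Lkb1/Braf mice, 2 of melanoma from Cdkn2a/Braf/Lkb1 mice and 2 of melanoma from Cdkn2a/Braf mice. Every group therefore carried a Cdkn2a or Lkb1 genotype, and every group apart from the day 19 control carried mutant Braf. The alleles, the Cre driver, the age at which tumours were taken and the number of animals in a pool were not given in the sources used here.

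Levels are given as log2(intensity + 1), where the intensity is the deposited array value, and a difference of 1 on this scale is a 2-fold difference in intensity. Array medians lay between 6.31 and 6.57. A gene was called when its limma p-value, adjusted by the Benjamini-Hochberg method over all 19937 genes, was under 0.05. With 2 or 3 arrays a group, the spread was estimated over all 13 arrays. Levels of different genes come from different probe sets and are not compared with one another. As a yardstick for dim probe sets, 1027 odorant receptor genes had a median level of 4.21, and 95% of them had a mean level at or below 6.0. Of the 56 members, 21 had a mean at or below 6.0, and 8 of these, including Ccr1l1, Ccr3, Ccr8 and Cxcl15, stayed there on every array.

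The labels were set against melanocyte markers. Dct, an enzyme of melanin synthesis, measured 12.69 to 13.33 on the 6 sorted arrays and 9.98 to 10.19 in the proliferations, but 5.0 and 5.95 in the Cdkn2a/Braf melanomas and 5.19 and 4.78 in the Cdkn2a/Braf/Lkb1 melanomas. Tyrp1 behaved likewise, at 4.63 to 5.77 on the 4 melanoma arrays, so both genes were at the level of odorant receptors in both melanoma groups. The whole melanocyte list held 8 genes. In Cdkn2a/Braf melanoma against proliferation 6 were called lower, and the other 2, Sox10 and Kit, were on the higher side without a call. In Cdkn2a/Braf/Lkb1 melanoma 7 were called lower, Sox10 among them, and 0 were on the higher side. Cdkn2a measured 6.21 to 6.76 on all 13 arrays and Stk11, the gene for Lkb1, overlapped between genotypes. The labels do not give the deleted exons, so these probe sets check no genotype.

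Chemokines are small secreted proteins that form gradients on cell surfaces and matrix, and leukocytes and other cells move along them through receptors coupled to Gi proteins. They are grouped as CC, CXC, C and CX3C by the spacing of their first cysteines. Inflammatory members are induced in damaged or infected tissue and draw monocytes, neutrophils and effector T cells, homeostatic members position cells in skin and lymphoid organs, and atypical receptors bind chemokines without classical signalling and remove them. In skin and melanoma they are made by keratinocytes, fibroblasts, endothelium, macrophages and the tumour cells themselves. In bulk RNA of this kind, fewer cells of a type and less RNA per cell cannot be told apart.

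The 56 members comprised 14 inflammatory CC ligands, 5 homeostatic or dual CC ligands, 5 CXC ligands with the Glu-Leu-Arg (ELR) motif, 3 interferon-induced ligands of Cxcr3, 7 other ligands, 10 CC receptors, 8 CXC, C and CX3C receptors and 4 atypical receptors. The duplicated Ccl21 and Ccl27 genes have no probe set of their own here and are not among the 56. Members with bright probe sets included Ccl19, which guides dendritic cells and T cells through Ccr7 (mean level 9.18), Cxcr4, the receptor of Cxcl12 (8.88), the eosinophil attractant Ccl11 (8.60), the epithelial chemokine Cxcl14 (8.43) and the myeloid chemokine Ccl6 (7.70). These means describe each probe set and give no order of the transcripts.

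The most general pattern separated tissue from sorted cells. In 12 of the 56 members the lowest of the 7 tissue arrays lay above the highest of the 6 sorted arrays, against 3.43% of all genes, and in none of the 56 did all tissue arrays lie below, against 1.78% of all genes. These 12 were Ccl2, Ccl5, Ccl8, Ccl9, Ccl11, Ccl12, Cxcl12, Cxcl14, Cxcl16, Ccr2, Cxcr2 and Cxcr4. Ccl8, a monocyte attractant, spanned 4.61 to 5.67 on the sorted arrays and 8.38 to 10.41 in tissue. Ccl11 spanned 6.65 to 7.83 on the sorted arrays and 9.12 to 10.38 in tissue. Ccr2, the receptor that monocytes use to leave the bone marrow, spanned 4.88 to 6.42 and 6.85 to 8.55. Material and lesion changed together here: sorting selects cells, and the macrophage marker list had a mean level of 5.29 to 6.65 on the sorted arrays and 7.79 to 9.41 on the tissue arrays. Not every marker list divided this way. The keratinocyte list measured 10.36 to 10.86 in the day 50 sorts and 5.95 to 9.56 on the melanoma arrays. The part of other cells in these levels was not tested.

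**Figure D1:**
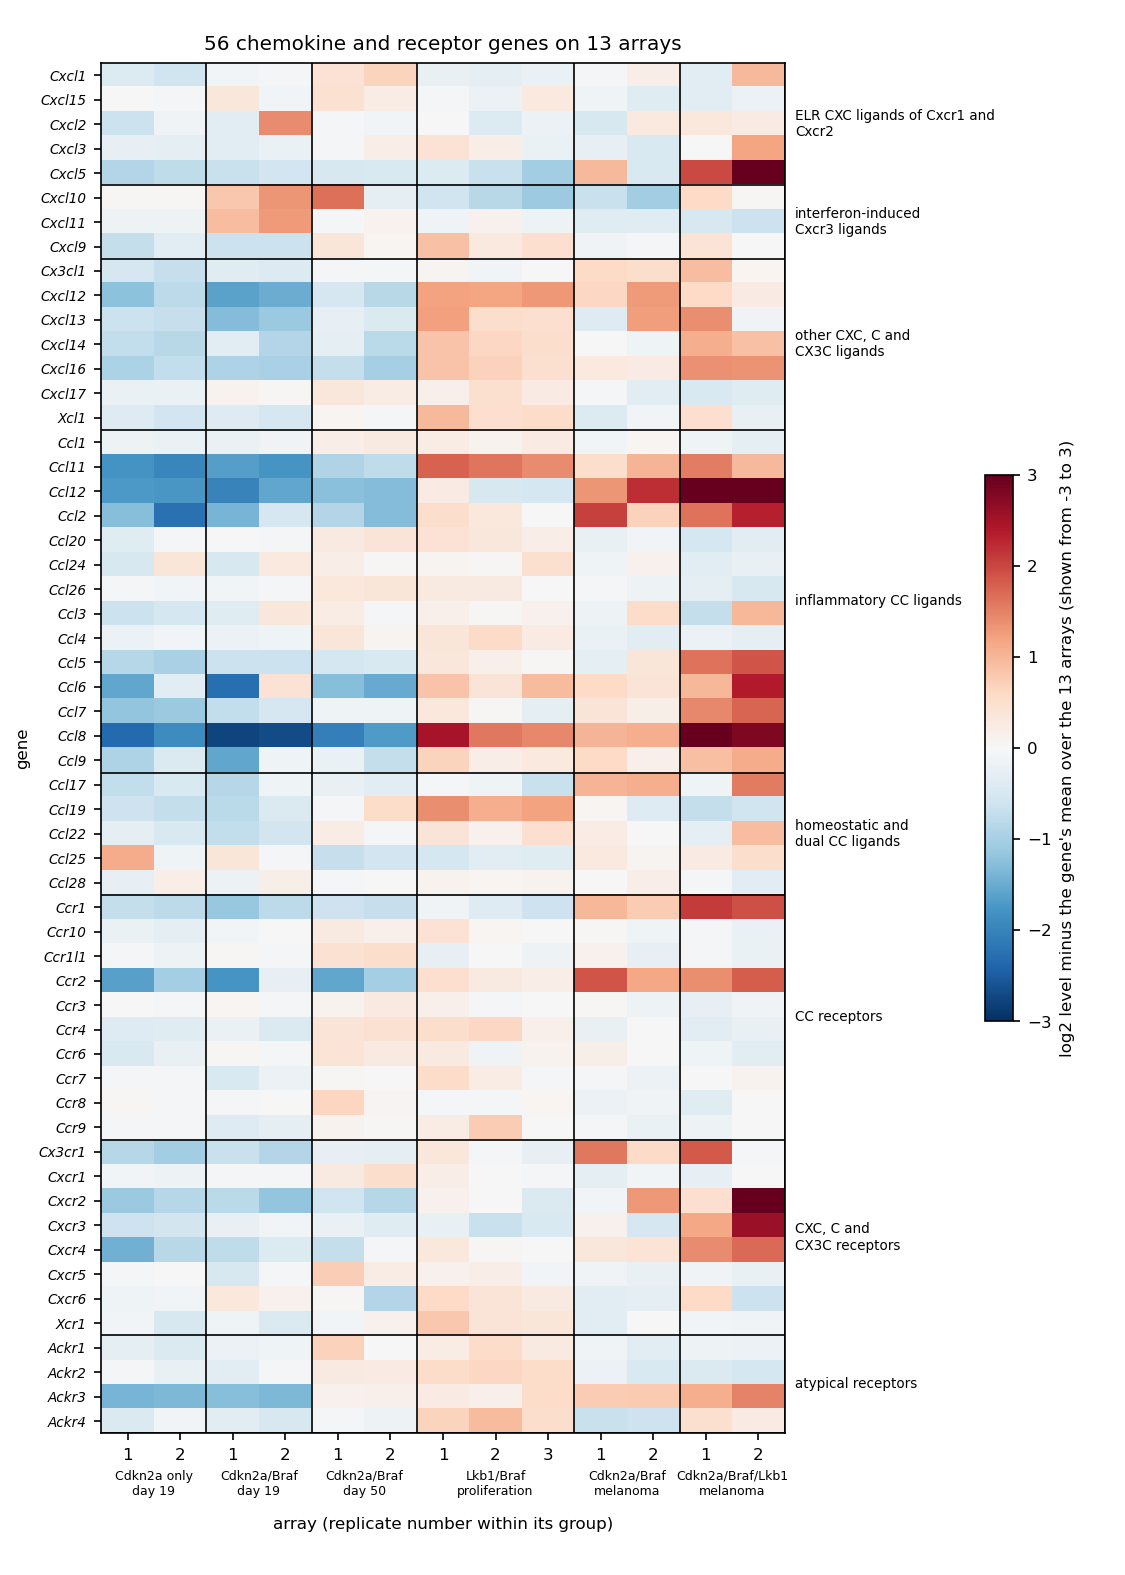
Rows are the 56 genes by role and columns the 13 arrays by group. Colour shows a gene's log2 level minus its own mean over the 13 arrays, so colours compare arrays within a row and not genes. Ccl8, Ccl12, Ccl2 and Ccl11 are low on the 6 sorted arrays, and Cxcl5, Ccl12, Ccl5, Cxcr3 and Ccr1 are highest in the 2 Cdkn2a/Braf/Lkb1 melanomas.

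Lkb1 is a kinase that activates AMPK and restrains mTORC1. The comparison of Cdkn2a/Braf/Lkb1 with Cdkn2a/Braf melanoma asks what the Lkb1 genotype adds in melanoma. Here 11 of the 56 members (19.6%) were higher in the Cdkn2a/Braf/Lkb1 tumours and none was called lower, against 2.56% of all genes called in either direction and 1.83% called higher. The median difference of the 56 was 0.13, beside -0.04 over all genes. At an unadjusted p under 0.05 the count was 15. By role, the calls were 4 of 14 inflammatory CC ligands, 1 of 5 ELR ligands, 2 of 7 other ligands, 1 of 10 CC receptors, 2 of 8 CXC, C and CX3C receptors and 1 of 4 atypical receptors.

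The 4 inflammatory CC ligands were Ccl5, Ccl7, Ccl8 and Ccl12. Ccl5, an attractant of T cells and monocytes, measured 8.89 and 9.14 in the Cdkn2a/Braf/Lkb1 melanomas and 6.99 and 7.62 in the Cdkn2a/Braf melanomas. The proliferations (7.29 to 7.60) and the sorted cells (6.29 to 6.81) were also below both Cdkn2a/Braf/Lkb1 melanomas. The difference between the melanomas was 1.71 ± 0.20 (SE), a 3.27-fold higher intensity (limma adjusted p = 0.0038). Ccl7, a monocyte attractant that acts through Ccr1, Ccr2 and Ccr3, measured 8.44 and 8.74 against 7.40 and 7.19, a difference of 1.30 ± 0.19 (SE; limma adjusted p = 0.008). No other array reached the level of the Cdkn2a/Braf/Lkb1 melanomas for either gene.

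Ccl8 measured 10.41 and 10.16 in the Cdkn2a/Braf/Lkb1 melanomas and 8.38 and 8.46 in the Cdkn2a/Braf melanomas, a difference of 1.87 ± 0.30 (SE; limma adjusted p = 0.0118). The proliferations, at 9.84, 8.96 and 8.82, lay between the melanoma groups. The difference of the Cdkn2a/Braf melanomas from them was not called (-0.79, limma adjusted p = 0.0684). Ccl12, the mouse monocyte attractant also called MCP-5, measured 10.06 and 9.22 against 7.56 and 8.46, a difference of 1.63 ± 0.36 (SE; limma adjusted p = 0.0473). Its levels fell into steps across tissue, with 6.48, 5.76 and 5.71 in the proliferations and 4.23 to 4.99 in sorted cells, and no 2 of these 4 sets of arrays overlapped. Ccl2, the founding monocyte attractant of the same cluster, measured 8.75 and 9.45 against 9.17 and 7.81, and these arrays overlapped (difference 0.61 ± 0.48 (SE), limma adjusted p = 0.538).

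Ccl12 and Ccl8 are neighbours that were both called, so the 200 bases before their annotated starts are shown (RefSeq, GRCm38.p6), with the letters of a TATA box in capitals. Both have TATAAA, 31 bases before the start in Ccl12 at chr11:82101645-82101844 (plus strand) and 32 bases before it in Ccl8 at chr11:82114985-82115184 (plus strand).
Ccl12: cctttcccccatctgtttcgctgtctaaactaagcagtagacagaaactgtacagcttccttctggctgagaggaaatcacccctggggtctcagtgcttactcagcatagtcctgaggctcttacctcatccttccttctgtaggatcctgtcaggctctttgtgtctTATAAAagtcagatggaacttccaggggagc
Ccl8: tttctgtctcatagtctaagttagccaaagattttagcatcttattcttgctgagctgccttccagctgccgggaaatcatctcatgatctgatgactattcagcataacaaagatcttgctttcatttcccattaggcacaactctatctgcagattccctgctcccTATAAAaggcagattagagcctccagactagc
A search on both strands for TATAAA over the 250 bases before each start found it in 12.4% of the 32851 promoters of the table and in 14 of the 44 promoters listed for 42 of the members. A match of letters is a description and not a binding site. Neither window held GGNNTTTCC, a core of NF-kB sites, or GAAANNGAA, a part of interferon response elements.

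The receptors called were Cxcr3, Cxcr4 and Ccr1. Cxcr3, carried by effector T cells and NK cells, measured 8.25 and 9.67 in the Cdkn2a/Braf/Lkb1 melanomas, against 7.20 and 6.57 in the Cdkn2a/Braf melanomas (difference 2.07 ± 0.38 (SE), limma adjusted p = 0.0199). All other arrays measured 6.42 to 7.0. The T and NK cell marker list had a mean level of 5.88 and 5.89 in these tumours and 5.43 and 5.55 in the Cdkn2a/Braf melanomas, with 7 of its 8 genes on the higher side. Cd4 was the 1 called, at 6.92 and 6.28 against 5.63 and 5.61 (difference 0.98, limma adjusted p = 0.0408), while Cd3e, the T cell receptor subunit, overlapped (6.18 and 6.61 against 6.31 and 6.48). The part of T and NK cells in the Cxcr3 difference was not tested. Of the Cxcr3 ligands, Cxcl10 measured 7.85 and 7.28 against 6.58 and 6.21 (difference 1.17 ± 0.49 (SE), limma adjusted p = 0.232). Cxcr4 measured 10.29 and 10.58 against 9.22 and 9.29 (difference 1.18 ± 0.26 (SE), limma adjusted p = 0.0478). Its ligand Cxcl12 measured 7.66 and 7.30 against 7.68 and 8.33 and was not called (difference -0.52 ± 0.23 (SE), limma adjusted p = 0.256). Ccr1, a receptor of Ccl5 and Ccl7 on monocytes and macrophages, measured 6.84 and 6.68 against 5.72 and 5.50 (difference 1.15 ± 0.18 (SE), limma adjusted p = 0.0112). On the other 9 arrays Ccr1 stayed between 3.61 and 4.63, in the range of odorant receptors.

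Among the remaining calls, Cxcl5 is an ELR ligand that draws neutrophils through Cxcr2. It measured 7.55 and 9.01 against 6.55 and 5.10, with 4.52 to 5.16 on all other arrays (difference 2.46 ± 0.49 (SE), limma adjusted p = 0.0312), and the mean of the Cdkn2a/Braf melanomas was below 6.0, so no fold is given. Cxcr2 itself measured 5.60 and 9.07 against 5.01 and 6.40, so the groups overlapped (difference 1.63 ± 0.86 (SE), limma adjusted p = 0.333). Cxcl16, the transmembrane ligand of Cxcr6, measured 7.79 and 7.76 against 6.71 and 6.67 (difference 1.08 ± 0.15 (SE), limma adjusted p = 0.00635). Cxcl14 measured 9.51 and 9.30 against 8.42 and 8.31 (difference 1.04 ± 0.22 (SE), limma adjusted p = 0.039). Ackr4, which scavenges Ccl19, Ccl21 and Ccl25, measured 6.98 and 6.74 against 5.84 and 5.87 (difference 1.00 ± 0.17 (SE), limma adjusted p = 0.0161). For Ackr4 the Cdkn2a/Braf melanomas were the lowest of the 13 arrays, and the proliferations the highest at 7.16, 7.45 and 7.03.

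**Figure D2:**
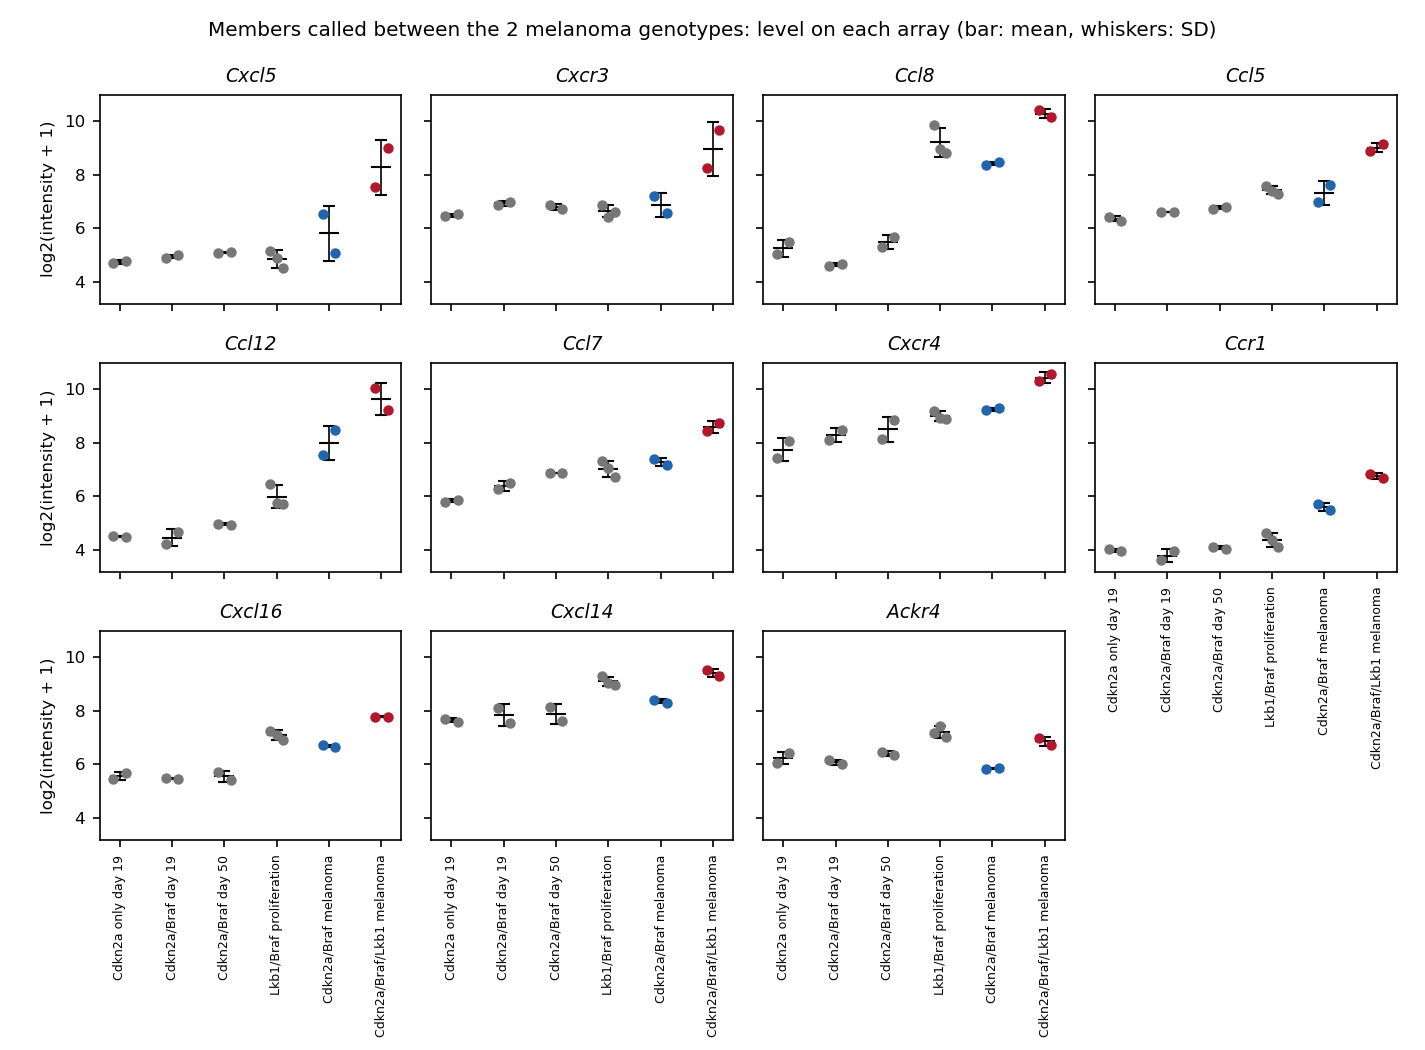
Each panel is 1 of the 11 members called between the melanoma genotypes, and each point an array on the log2(intensity + 1) scale, with the bar at the group mean and whiskers of 1 SD. Red points are Cdkn2a/Braf/Lkb1 melanoma and blue points Cdkn2a/Braf melanoma, and in all 11 panels both red points lie above both blue points. Of all genes, 53.5% had no overlap between these groups in either direction.

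Marker lists of other cells also differed between the melanoma genotypes, some on the higher and some on the lower side. The macrophage and monocyte list had a mean level of 8.96 to 9.41 in the Cdkn2a/Braf/Lkb1 melanomas and 8.08 to 8.22 in the Cdkn2a/Braf melanomas, with all 10 of its genes on the higher side and 2 of 10 called (Cd68 and Fcgr1). The neutrophil list measured 6.0 to 6.75 against 5.81 to 5.85 with S100a8 called, while Ly6g, which defines neutrophils, was at 4.51 and 4.80 against 4.72 and 4.42. The keratinocyte list measured 5.95 to 7.03 against 6.08 in the first and 9.56 in the second Cdkn2a/Braf melanoma, with all 7 genes on the lower side and none called. The mast cell list measured 5.98 to 6.47 against 6.70 to 8.21, with all 7 genes on the lower side and Mcpt4 called. Itgax of the dendritic list and Col1a1 of the fibroblast list were called higher. The part of these cells in the chemokine differences was not tested. All 11 differences kept their sign under every alternative analysis. Because the groups did not overlap, leaving out an array could not change a sign. The calls were less firm: none of the 11 held in all 24 alternatives. Those of Ccl12, Cxcr4, Cxcl14 and Cxcl5 were lost in 16, 14, 13 and 12 of them. Only Ackr4, Ccl5, Ccl7, Ccr1 and Cxcl16 held under median centring, quantile normalization and interquartile range scaling alike. The calls also depended on which arrays were fitted. Without the second Cdkn2a/Braf melanoma, Ccl5 alone was called (difference 2.03, limma adjusted p = 0.00248), with 0.677% of all genes called, while the other 10 had differences of 0.98 to 2.08 and limma adjusted p-values of 0.0537 to 0.18. Leaving out any 1 of the 3 proliferation arrays gave 7 calls, and a fit on the 4 melanoma arrays alone gave none, with 15 members at an unadjusted limma p under 0.05.

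The Cdkn2a/Braf/Lkb1 melanomas were next set against the Lkb1/Braf proliferations, lesions whose genotype label names Lkb1 and Braf but not Cdkn2a. Of the 56 members, 24 were called, 13 higher and 11 lower in the melanomas. This share of 42.9% is close to the 40.6% of all genes that were called, with 20.0% of all genes higher and 20.6% lower. With each array centred on its median, the members divided as 16 higher and 9 lower, and with arrays scaled to a common interquartile range as 19 and 6. The median difference of the members was -0.14, and it changed sign with the scaling, to 0.30 under interquartile range scaling.

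The 13 higher members included 5 of the 14 inflammatory CC ligands, while 4 others of the 14 (Ccl1, Ccl4, Ccl20 and Ccl26) were called lower. Ccl12 differed by 3.66 ± 0.33 (SE; limma adjusted p = 5.63e-05), from the array values given above, with a mean below 6.0 in the proliferations. Ccl2 measured 8.75 and 9.45 in the melanomas and 7.65, 7.43 and 7.14 in the proliferations (difference 1.70 ± 0.44 (SE), limma adjusted p = 0.013). Its receptor Ccr2 measured 8.05 and 8.48 against 7.16, 6.92 and 6.85 (difference 1.28 ± 0.41 (SE), limma adjusted p = 0.031). Ccr1 was higher by 2.40 ± 0.17 (SE; limma adjusted p = 1.69e-05), Ccl5 by 1.58 ± 0.18 and Ccl7 by 1.56 ± 0.18, while Ccl8 differed by 1.08 ± 0.28. The Ccl8 call was lost under interquartile range scaling (difference 0.18) and quantile normalization, with the replicate block and without the first melanoma, with limma adjusted p-values up to 0.701. The Ccr2 call was lost in 9 of 24 alternatives, among them the replicate block and each melanoma or proliferation array left out (limma adjusted p up to 0.158). Cxcl5 differed by 3.42 ± 0.45 (SE; limma adjusted p = 0.000419), with the proliferations below 6.0 on every array, and Cxcr3 was 5.0-fold higher in intensity. Cxcr4, Cxcl16 and Ackr3 completed the list with differences of 1.44, 0.68 and 0.98. The call of Cxcr2, at 5.60 and 9.07 against 5.22, 5.09 and 4.67, was lost in 12 of 24 alternatives. Among them were a pseudocount of 16, the replicate block and each proliferation or day 19 array left out. Without the second melanoma the Cxcr2 difference was 0.61. The Ccl2 call was lost in 3 of 24 alternatives, namely quantile normalization, the replicate block and the second melanoma left out.

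On the lower side, Ccl19 measured 8.46 and 8.59 in the melanomas and 10.58, 10.26 and 10.38 in the proliferations, which were the highest of all 13 arrays (difference -1.88 ± 0.20 (SE), limma adjusted p = 0.000145). Ackr2, an atypical receptor that takes up inflammatory CC chemokines, measured 5.77 and 5.69 against 6.77, 6.83 and 6.75 (difference -1.05 ± 0.13 (SE), limma adjusted p = 0.000312). Cxcl12, the main ligand of Cxcr4, measured 7.66 and 7.30 against 8.27, 8.23 and 8.36 (difference -0.80 ± 0.21 (SE), limma adjusted p = 0.0141). Cxcl17 was lower by a difference of -0.70. The other 7 (Ccl1, Ccl4, Ccl20, Ccl26, Ccr4, Cxcl11 and Xcr1) had differences of -0.76 to -0.39. Cxcl17, a mucosal chemokine, measured 6.66 and 6.74 against 7.26, 7.59 and 7.35. Ccl4, a ligand made by activated macrophages and T cells, measured 5.94 and 5.83 against 6.5, 6.70 and 6.37. Ccl1, the ligand of Ccr8, measured 6.02 and 5.88 against 6.36, 6.26 and 6.39. In each of these 3 the groups did not overlap, as in 69.8% of all genes in either direction. Ccl20, the ligand of Ccr6, measured 4.96 and 5.16 against 5.93, 5.84 and 5.69. Ccl26, an eotaxin, measured 5.45 and 5.24 against 5.99, 6.0 and 5.73. Cxcl11 measured 5.21 and 5.06 against 5.60, 5.83 and 5.55. These 3 and the receptors were dim: 5 of the 7 had both group means at or below 6.0. Ccr4 measured 5.13 and 5.22 against 5.99, 6.07 and 5.60, and Xcr1 5.39 and 5.37 against 6.28, 5.86 and 5.83. Odorant receptor genes moved the same way, with a median difference of -0.26 and 280 of 1027 called lower against 3 called higher. Of the 24 calls, 12 held under all 3 rescalings of the arrays, among them Ccl19, Ackr2, Cxcl12 and Cxcl17 on the lower side.

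The marker lists differed widely between these lesions. The keratinocyte list had a mean level of 11.38 to 11.46 in the proliferations and 5.95 to 7.03 in the Cdkn2a/Braf/Lkb1 melanomas, with all 7 genes called lower. In the dendritic and Langerhans cell list Cd207 and Epcam were called lower and Itgax higher, and in the T and NK cell list Cd3e and Cd3g were called lower and Cd4 higher, with 5 of 8 genes on the higher side. In the fibroblast list 5 of 8 genes were called higher and 1 lower, and 5 of 10 macrophage genes were called higher (Adgre1, Csf1r, Itgam, C1qa and Fcgr1). Their part in the chemokine differences was not tested.

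**Figure D3:**
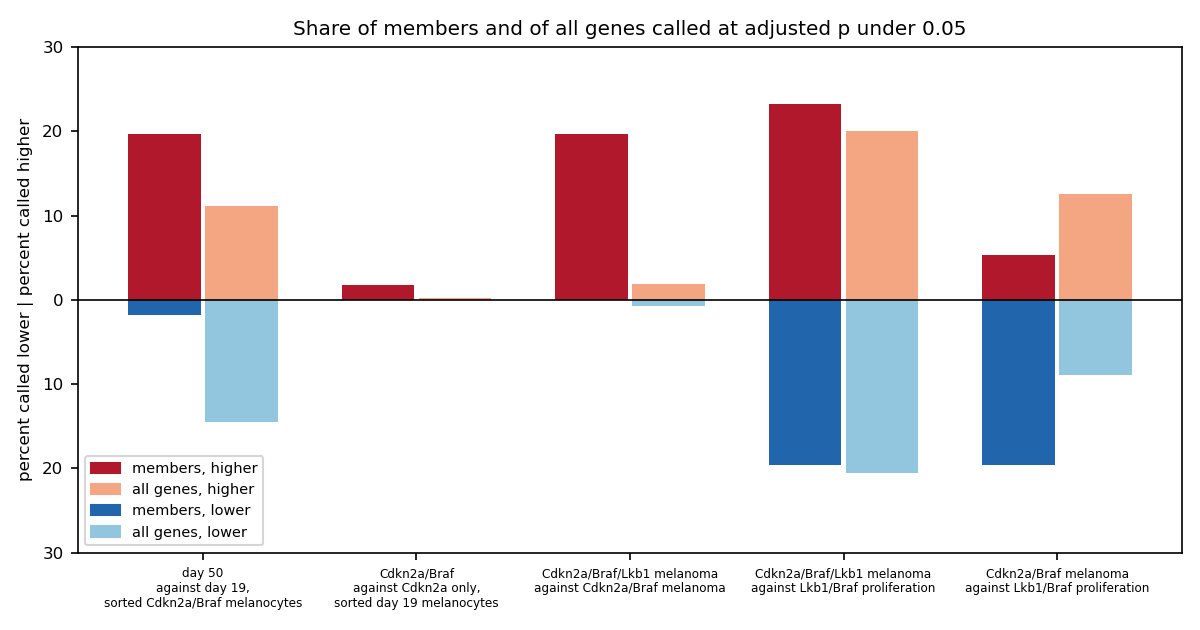
Bars above 0 give the percent of genes called higher and bars below 0 the percent called lower, dark for the 56 members and light for all 19937 genes, in each of the 5 comparisons. The members' bar stands far above that of all genes for Cdkn2a/Braf/Lkb1 against Cdkn2a/Braf melanoma (19.6% against 1.83% higher) and close to it for Cdkn2a/Braf/Lkb1 melanoma against proliferation.

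Cdkn2a/Braf melanomas were compared with the same proliferations, the lesions differing by label in both Cdkn2a and Lkb1. Here 14 of the 56 members (25.0%) were called, against 21.5% of all genes. Only 3 were higher in the melanomas (all genes 12.6%) and 11 were lower (all genes 8.88%). The split was 5 and 9 after median centring and 7 and 9 after interquartile range scaling. Ccl12 was higher, at 7.56 and 8.46 against 6.48, 5.76 and 5.71 (difference 2.03 ± 0.33 (SE), limma adjusted p = 0.00236). Ccl17, the ligand of Ccr4 made by dendritic cells and keratinocytes, measured 7.47 and 7.55 against 6.41, 6.32 and 5.79 (difference 1.34 ± 0.41 (SE), limma adjusted p = 0.0443). The Ccl17 call was lost in 11 of 24 alternatives, among them the replicate block and each melanoma or proliferation array left out, with limma adjusted p-values up to 0.177. Ccr1 measured 5.72 and 5.50 against 4.63, 4.36 and 4.11 (difference 1.24 ± 0.17 (SE), limma adjusted p = 0.000839), with both means below 6.0.

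Among the 11 lower members, Ccl19 measured 9.23 and 8.78 against 10.58, 10.26 and 10.38 (difference -1.40 ± 0.20 (SE), limma adjusted p = 0.00127). Ackr4, which scavenges Ccl19, measured 5.84 and 5.87 against 7.16, 7.45 and 7.03 (difference -1.36 ± 0.16 (SE), limma adjusted p = 0.000347). Xcl1, which attracts cross-presenting dendritic cells through Xcr1, measured 6.12 and 6.44 against 7.51, 7.02 and 7.08 (difference -0.92 ± 0.22 (SE), limma adjusted p = 0.0155), and Xcr1 itself was lower by a difference of -0.70. Ccl11 measured 9.12 and 9.63 against 10.38, 10.21 and 10.01 (difference -0.83 ± 0.20 (SE), limma adjusted p = 0.0163). Ackr2 was lower by -0.89 and Cxcl14 by -0.74, and Ccl4, Ccr4, Ccl20 and Cxcl17 by -0.68 to -0.48. In the Cdkn2a/Braf melanomas Ackr2 measured 6.03 and 5.76, Ccl4 5.92 and 5.78 and Cxcl17 7.05 and 6.80. The dim members Ccr4, Ccl20 and Xcr1 measured 5.23 and 5.46, 5.26 and 5.42, and 5.12 and 5.47. Odorant receptor genes had a median difference of -0.19, with 106 of 1027 called lower. The keratinocyte list measured 6.08 to 9.56 against 11.38 to 11.46. In the T and NK cell list Cd3e, Cd3d and Cd3g were called lower and 0 of 8 genes were on the higher side, and in the dendritic and Langerhans cell list Cd207 and Epcam were called lower. The part of these cells in Ccl19, Xcl1, Xcr1 or the other members was not tested. The count fell to 7 without the first Cdkn2a/Braf melanoma and to 7 without the first proliferation, the same 7 being drawn from the 14 in each case. This comparison shares its arrays with both of the preceding ones, so the repeat of Ccl12, Ccr1, Ccl19 and Ackr2 is not independent.

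In sorted Cdkn2a/Braf melanocytes, day 50, after growth arrest, was compared with day 19. Of the 56 members 12 were called (21.4%), against 25.6% of all genes, with 11 higher at day 50 (all genes 11.1%) and 1 lower (all genes 14.5%). The median difference of the members was 0.33, beside 0.17 over all genes and 0.33 over odorant receptor genes, of which 189 of 1027 were called higher. The members' median was therefore that of the odorant receptor genes. The spread of levels within an array also narrowed, from interquartile ranges of 2.58 and 2.55 at day 19 to 1.94 and 1.93 at day 50. After scaling to a common interquartile range the members divided as 5 higher and 4 lower, and 5 calls held under all 3 rescalings: Ackr3, Ccl11, Ccl19, Cxcl12 and Cxcl11.

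Ackr3, the scavenging receptor of Cxcl12 and Cxcl11, measured 7.19 and 7.21 at day 50 and 5.77 and 5.70 at day 19 (difference 1.46 ± 0.16 (SE), limma adjusted p = 0.000286), with day 19 below the 6.0 of the odorant receptor genes. The Cdkn2a control at day 19 measured 5.65 and 5.70, so both groups of day 19 arrays lay well below day 50. It was the only one of the 12 calls that held under all 24 alternative analyses. Cxcl12, which Ackr3 binds, measured 6.55 and 6.22 against 5.45 and 5.56 (difference 0.88 ± 0.23 (SE), limma adjusted p = 0.0238). Ccl11 measured 7.69 and 7.83 against 6.94 and 6.82 (difference 0.88 ± 0.22 (SE), limma adjusted p = 0.0188). Ccl19 measured 9.14 and 9.72 against 8.37 and 8.75 (difference 0.87 ± 0.22 (SE), limma adjusted p = 0.0207). Ccl19 has 4 probe sets of its own, and these values are from the brightest. Its call was lost in 6 of 24 alternatives, among them the mean of its probe sets.

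The interferon-induced ligands of Cxcr3 did not move together. Cxcl9 measured 6.61 and 6.30 at day 50 and 5.60 and 5.59 at day 19 (difference 0.86 ± 0.22 (SE), limma adjusted p = 0.0209). Cxcl11 measured 5.66 and 5.79 against 6.62 and 6.97, the 1 member called lower (difference -1.07 ± 0.15 (SE), limma adjusted p = 0.00102). RefSeq lists mouse Cxcl11 as a transcribed pseudogene in this annotation. Cxcl10 measured 8.90 and 6.97 against 8.06 and 8.57, so its day 50 arrays differed by 1.93 and straddled day 19 (limma adjusted p = 0.554). Cxcl9 was called and Cxcl10 was not, but no test compared the 2 genes with each other. Because Cxcl9 and Cxcl10 lie together, the 200 bases before their starts are shown from the minus strand (RefSeq, GRCm38.p6). Matches to TATAAA, GGNNTTTCC and GAAANNGAA on either strand are in capitals.
Cxcl9: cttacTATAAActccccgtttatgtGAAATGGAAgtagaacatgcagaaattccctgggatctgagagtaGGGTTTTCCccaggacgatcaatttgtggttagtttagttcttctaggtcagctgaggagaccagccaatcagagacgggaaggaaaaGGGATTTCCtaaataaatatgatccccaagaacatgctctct
Cxcl10: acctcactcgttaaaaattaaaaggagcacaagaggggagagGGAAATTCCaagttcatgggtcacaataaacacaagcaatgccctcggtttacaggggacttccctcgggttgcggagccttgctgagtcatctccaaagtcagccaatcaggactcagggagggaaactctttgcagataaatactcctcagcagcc
The Cxcl9 window is chr5:92328080-92328279 and the Cxcl10 window chr5:92348890-92349089. GGNNTTTCC was found in 4.9% of all 250-base windows and in 9 of the 44 member windows, and GAAANNGAA in 7.1% and in 8 of 44. The Cxcl9 window holds GGNNTTTCC at 130 and 42 bases before the start, and the Cxcl10 window at 158 bases. GAAANNGAA lies in the Cxcl9 window and, for Cxcl10, only in the 250-base window, beyond the bases shown.

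The remaining day 50 calls were Ackr2, Ccl1, Cxcr1, Ccr1l1, Cxcr5 and Ccr4, with differences of 0.38 to 0.73. Ackr2 measured 6.48 and 6.45 at day 50 against 5.88 and 6.18. Ccl1 measured 6.34 and 6.41 against 5.95 and 6.04. Cxcr1, a receptor of ELR ligands, measured 6.64 and 6.88 against 6.30 and 6.33. In these 3 the day 50 arrays lay above both day 19 arrays, as they did in the dimmer receptors Ccr1l1, Ccr4 and Cxcr5, whose means were at or below 6.0. Across all genes, 70.7% had no overlap between these groups in either direction, beside 71.4% of the members. The calls of Ackr2, Ccl1 and Cxcr1 were lost in 19, 15 and 18 of 24 alternatives, all 3 rescalings among them. Ccr1l1 measured 5.28 and 5.34 against 4.86 and 4.78. Cxcr5, the receptor of Cxcl13, measured 5.03 and 4.51 against 3.82 and 4.26. Ccr4 measured 5.85 and 5.90 against 5.25 and 5.03. Markers of other cells were higher in the day 50 sorts: 7 of 8 endothelial genes and 6 of 8 fibroblast genes were called higher, and the mean level of the endothelial list was 7.11 to 8.45 at day 50 against 6.0 to 6.10 at day 19. The fibroblast list measured 8.54 to 8.69 against 6.52 to 6.55, and the keratinocyte list 10.36 to 10.86 against 8.10 to 8.30. The part of these cells in the rise of Ackr3, Cxcl12, Ccl11 or Ccl19 was not tested. The count fell to 4 without either day 19 array and to 7 without the first day 50 array. With array weights 2 members were called, and with only the 4 arrays 1.

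**Figure D4:**
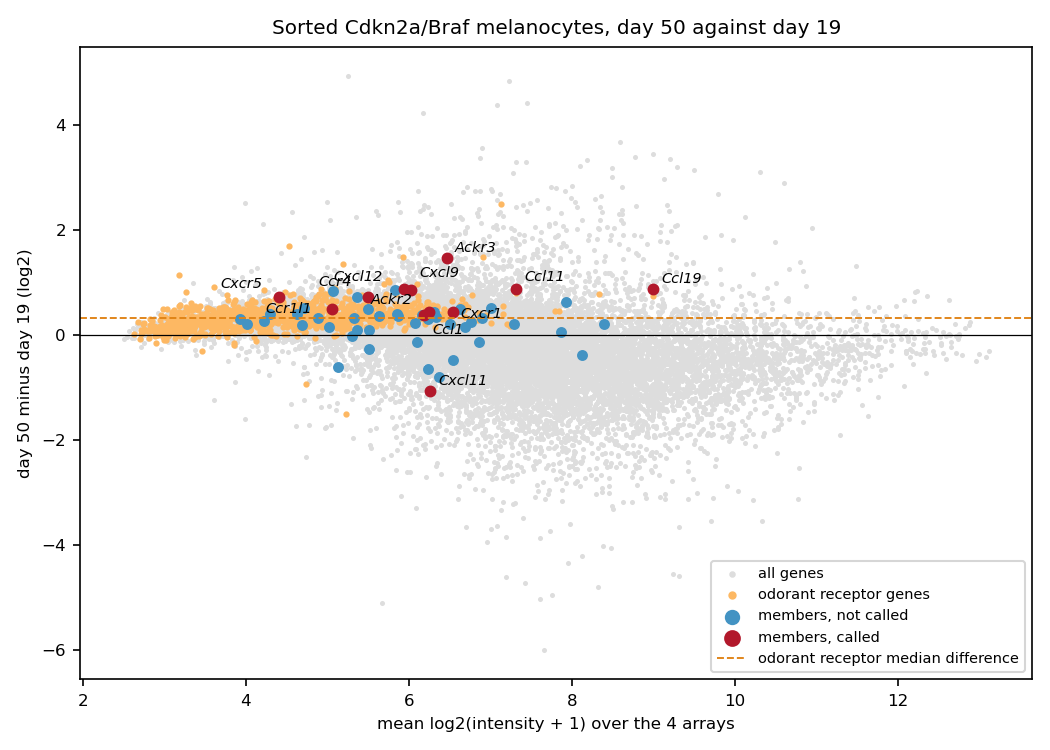
Each point is a gene, with its mean level over the 4 arrays on the x axis and its day 50 minus day 19 difference (log2) on the y axis. Grey points are all genes, orange points odorant receptor genes with their median difference of 0.33 as a dashed line, and blue and red points members not called and called. Most called members lie near the orange band, and Ackr3 and Cxcl11 lie apart from it.

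Oncogenic Braf at day 19 was tested in sorted Cdkn2a/Braf melanocytes against the Cdkn2a control. Cxcl11 was the 1 member called of 56 (1.79%), against 0.291% of all genes called and 0.236% called higher. It measured 6.62 and 6.97 with mutant Braf and 5.55 and 5.54 without (difference 1.26 ± 0.15 (SE), limma adjusted p = 0.0103). The 2 groups did not overlap, as in 40.6% of all genes, and the control was below the 6.0 of the odorant receptor genes. All other 9 arrays lay between 5.06 and 5.83, so day 19 Cdkn2a/Braf cells had the highest level of this gene. Cxcl10 measured 8.06 and 8.57 against 7.28 and 7.28 without passing the test (difference 1.04 ± 0.49 (SE), limma adjusted p = 0.731), and Cxcl9 measured 5.60 and 5.59 against 5.52 and 5.92. At an unadjusted p under 0.05 the count was 3. The call of Cxcl11 was lost without the second Cdkn2a/Braf array (difference 1.08, limma adjusted p = 0.118), without the second control array (1.25, limma adjusted p = 0.0564) and in a fit on the 6 sorted arrays alone (limma adjusted p = 0.306). Its fall by day 50 uses the same day 19 arrays and is not independent of this difference.

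Replicate arrays of 1 group differed for some members. In the Cdkn2a/Braf melanomas 5 of the 56 members (8.9%) differed by more than 1 between the 2 arrays, beside 2.5% of all genes. These were Cxcl13, Cxcl5, Cxcr2, Ccl2 and Cx3cr1. In the Cdkn2a/Braf/Lkb1 melanomas 12 of the 56 members (21.4%) differed by more than 1 between the 2 arrays, beside 2.5% of all genes. The second array was higher for Cxcr2 (9.07 against 5.60), Cxcl5 (9.01 against 7.55), Ccl3 (6.34 against 4.62), Ccl6 (10.08 against 8.70), Cxcl1 (8.67 against 7.39) and Cxcl3 (6.15 against 4.97), and also for Cxcr3 (9.67 against 8.25) and the Ccr4 ligands Ccl17 (8.02 against 6.32) and Ccl22 (6.58 against 5.37). The first array was higher for Cx3cr1, the fractalkine receptor of resident macrophages (9.37 against 7.46), for the B cell attractant Cxcl13 (8.0 against 6.51) and for Cxcr6, the receptor of Cxcl16 (6.95 against 5.70). In the second array S100a9 was at 11.02 against 8.90, Csf3r at 8.15 against 6.39 and Il1b at 10.01 against 8.27. The whole neutrophil list was at 6.75 against 6.0, and Ly6g was below 6.0 on both arrays. The part of neutrophils in these gaps was not tested.

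In the sorted day 19 cells, 4 members (7.1%) of Cdkn2a/Braf and 2 (3.6%) of the control differed by more than 1, beside 0.9% and 2.0% of all genes. Of the Cdkn2a/Braf arrays, the second had more Ccl6 (8.13 against 5.43), Cxcl2 (6.30 against 4.57), Ccr2 (6.42 against 4.88) and Ccl9 (6.77 against 5.33). Lyz2, a macrophage lysozyme, was at 9.72 on that array and 6.94 on the other, and the whole macrophage and monocyte list was at 6.65 and 5.69. Of the control arrays, the second had more Ccl6 (7.38 against 6.15), with Lyz2 at 8.22 against 5.32 and the whole list at 6.35 against 5.29. The first control array had more Ccl25, a thymic and gut chemokine (7.73 against 6.47). The 4 members of the Cdkn2a/Braf arrays were not called between Cdkn2a/Braf and control, and the part of myeloid cells in them was not tested.

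**Figure D5:**
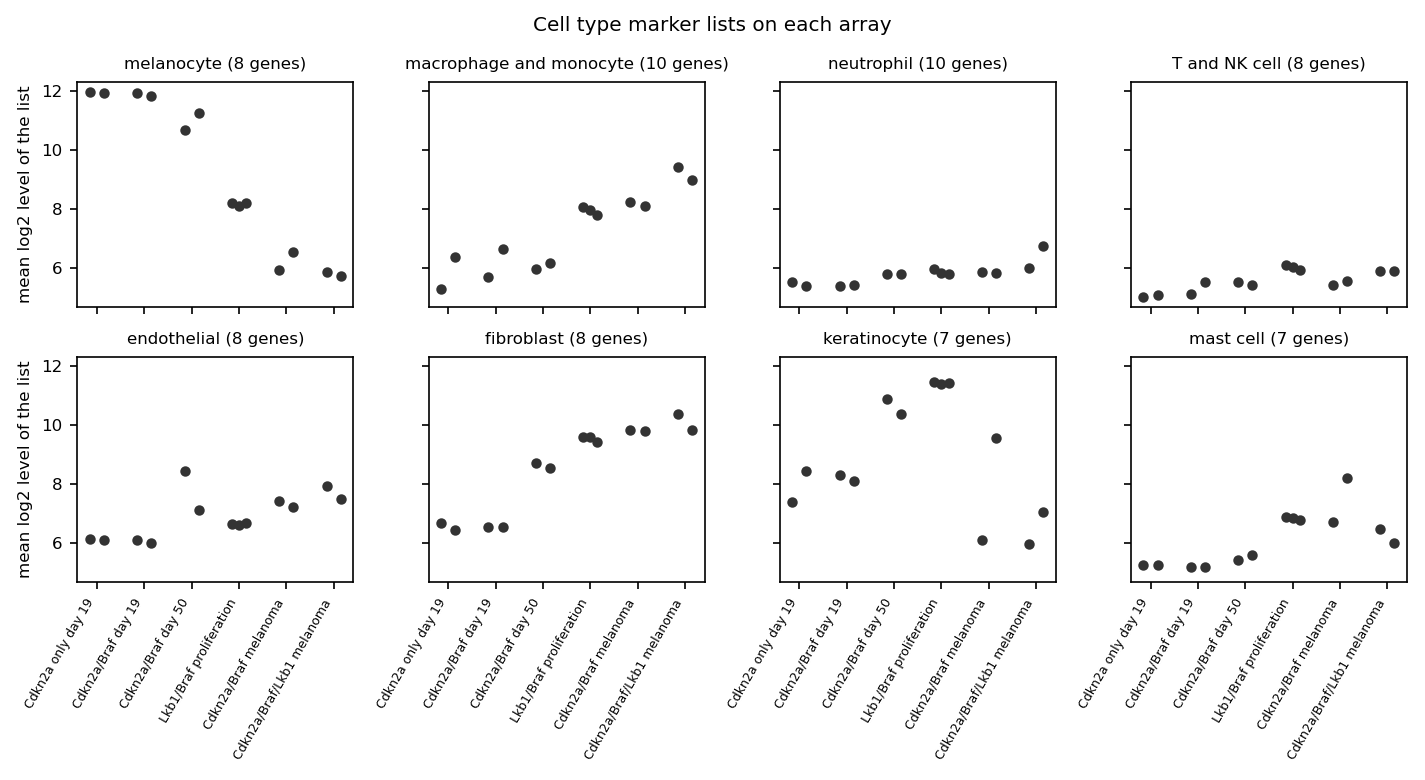
Each panel is a cell type marker list and each point an array, with the mean log2 level of the list's genes on the y axis and the 6 groups on the x axis. Macrophage markers are highest in the Cdkn2a/Braf/Lkb1 melanomas (8.96 to 9.41), keratinocyte markers in the proliferations (11.38 to 11.46). The mean of the melanocyte list is lowest in the 2 melanoma groups (5.71 to 6.54), though not every gene of that list is.

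Genes that act with the members were read from lists, and their counts stand beside 2.56% of all genes called between the melanoma genotypes, and 20.0% called higher and 20.6% lower for Cdkn2a/Braf/Lkb1 melanoma against proliferation. Of 10 chemokine-like genes outside the symbol rule, Pf4, the platelet chemokine also called Cxcl4, was the 1 called between the melanoma genotypes, at 10.07 and 10.28 in Cdkn2a/Braf/Lkb1 against 9.06 and 8.14 (difference 1.58 ± 0.35 (SE), limma adjusted p = 0.0472). Of 23 genes of receptor signalling, 2 were called in that comparison, both higher: Dock2, which activates Rac in migrating leukocytes, and the receptor kinase Grk3. Against the proliferations, 10 of the 23 were higher in the Cdkn2a/Braf/Lkb1 melanomas and 1 was lower. Of 20 inducers and NF-kB genes, Il1b (difference 2.26 ± 0.49 (SE), limma adjusted p = 0.0436) and Irf7 (0.78 ± 0.13 (SE), limma adjusted p = 0.0118) were higher between the melanoma genotypes, and against the proliferations 6 were higher, among them Il1b, Il6, Tlr2 and Tlr4. At day 50, 2 of the 20 were higher, beside 11.1% of all genes, and 1 was lower, beside 14.5% of all genes. The lower gene was Myd88, the adaptor of Toll-like and interleukin-1 receptors (difference -1.65, limma adjusted p = 0.000204). Myd88 was also the 1 of the 20 that was higher with mutant Braf at day 19 (difference 1.08, limma adjusted p = 0.0372), beside 0.236% of all genes. These 2 comparisons share the day 19 arrays of Cdkn2a/Braf.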

How the data were processed

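RNA was amplified, labelled with biotin and hybridised to Affymetrix arrays, per the labels' protocols, and the deposited intensity values were made with RMA, per the submitters' processing notes. The authors' values lie between 3.35 and 17698 and were read as linear intensities. Of 34760 probe sets, 22961 were listed in the platform's gene table, and 21640 with 1 gene gave 19937 genes, each taken at its probe set with the highest mean. Members were tested as log2(value + 1) of the deposited intensities with limma 3.58.1 (R 4.3.3), group means over all 13 arrays, two-sided, adjusted over all genes. Arrays have no read depth, so their number limits precision. The fit was tested on simulated data. By rule, per-array values go to members called in at least 1 comparison and the 5 with the highest mean. Some other members are given by array outside this rule. Among them are Cxcl10 and members picked because their replicate arrays differed by more than 1. The members, lists and comparisons were chosen with earlier results of these data known. Same-numbered replicates did not deviate together (r from -0.117 to 0.0933), so they were not paired. Alternatives covered scaling, pseudocount, probe set choice, a filter on dim genes, moderation, weights, the arrays fitted and each array left out.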

Additional observations from a re-analysis of the deposited data

Results flagged for a closer look

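Probe sets that list several genes were left out of the tests, and 3 of them list copies of Ccl21 and Ccl27, which are not among the 56 genes. Their signal stood above both Cdkn2a control arrays in some groups and cannot be given to 1 gene copy. The set listing Ccl21 copies, ligands of Ccr7 made by lymphatic endothelium, had a mean of 11.15 in the day 50 melanocytes (11.27 and 11.03) and 9.43 in the proliferations (9.48, 9.59 and 9.21), against 7.34 and 9.14 in the control. The 2 sets listing Ccl27 copies, a keratinocyte chemokine that draws T cells through Ccr10, had means of 8.95 and 11.07 in the proliferations, against 2.62 and 4.32 and against 7.82 and 7.76 in the control. The first of these also had a mean of 6.97 at day 50 (7.49 and 6.46). The melanomas measured 2.77 to 5.43 and 7.19 to 8.52 on the same sets. These differences were not tested.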

How the results depend on the processing

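None of the 62 member calls changed sign in 24 alternatives, and 16 held in every one that tested the gene. Where the 2 groups of a call do not overlap, leaving out an array cannot change its sign. Counts of called members moved as follows. Between the melanoma genotypes 11 became 6 with quantile normalization, 7 with interquartile range scaling, 7 with the replicate block, 0 with the arrays of the 2 groups only (limma, 15 at an unadjusted p under 0.05), and 1 to 12 with 1 array left out. At day 50, 12 became 5 with quantile normalization, 7 with the dim filter (41 members tested), 2 with array weights, 5 with sorted arrays only, 1 with 2 groups only, and 4 to 14 with 1 array left out; the replicate block gave 8. For Braf at day 19, 1 became 0 with sorted arrays only and with 2 groups only (limma, 6 and 10 at an unadjusted p under 0.05), and 0 to 1 with 1 array left out. Cdkn2a/Braf/Lkb1 melanoma against proliferation gave 15 in place of 24 with quantile normalization and 20 to 26 with 1 array left out, and Cdkn2a/Braf melanoma 7 to 20 in place of 14. The replicate block gave 19 and 13 there. The cause was not tested. Of all calls, 43.4% were higher at day 50 and 24.1% after median centring. For Cdkn2a/Braf/Lkb1 melanoma the share was 71.4% against Cdkn2a/Braf melanoma and 59.2% after interquartile range scaling. Against proliferations it was 49.3% and 63.2% (median centring). For Cdkn2a/Braf melanoma it was 58.6%, 68.6% (median centring) and 45.6% (quantile). Interquartile range scaling moved the median of all genes at day 50 from 0.17 to -0.05, and against proliferations from -0.04 to 0.16 and from -0.02 to 0.14.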

Other observations

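The CC ligands of mouse chromosome 11 stand in an order in which Ccl2, Ccl7, Ccl11, Ccl12, Ccl8 and Ccl1 follow each other. Between the melanoma genotypes Ccl7, Ccl12 and Ccl8 were called higher, with differences of 1.30, 1.63 and 1.87, while the outer genes Ccl2 and Ccl1 had differences of 0.61 and -0.19 and Ccl11 had 0.49. In the second block Ccl5 was called (1.71), and Ccl9, Ccl6, Ccl3 and Ccl4 had differences of 0.62, 1.20, -0.05 and 0.04. On chromosome 5, Cxcl5 (2.46) and its neighbour Pf4 (1.58) were called, while Ppbp between them (1.36, limma adjusted p = 0.129) and Cxcl3, Cxcl15, Cxcl1 and Cxcl2 (0.93, -0.02, 0.27 and 0.37) were not. In the interferon block of chromosome 5, Cxcl9, Cxcl10 and Cxcl11 had differences of 0.28, 1.17 and -0.20, and none was called (limma adjusted p 0.232 to 0.543).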
